A study of Mus musculus with 6 samples.

Results

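The genes described here are 10 genes of the NRF2 antioxidant response: Nfe2l2, which encodes NRF2, its repressor Keap1, and the target genes Hmox1, Nqo1, Gclm, Gclc, Slc7a11, Srxn1, Txnrd1 and Osgin1. They were taken by name from a list that was drawn up with earlier results of these data known, so the counts over the list describe it and are no independent evidence of its direction. Of the 41386 genes in the deposited table, 9 carried one of these names. Txnrd1, the 10th, had no name in the table and was found from the KEGG text of its row, whose neighbouring genes matched those of Txnrd1. It is reported beside the others and is left out of the counts over the 9 named genes unless it is mentioned. RNA was sequenced from the hippocampus of wild type C57BL/6 mice aged 56 days. The I/R group (3 libraries) had focal middle cerebral artery occlusion for 1.5 h, a model of stroke in which a filament blocks the artery, and then 24 h of reperfusion. The sham group (3 libraries) had the operation without the occlusion. According to the study's methods the mice were male, the hippocampi came from the ipsilateral side, and each library was a pool of several, so p-values measure how pools differ and not how single mice do.

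NRF2 is a transcription factor that is made continually and, in unstressed cells, bound by KEAP1 and marked for degradation. Oxidants and electrophiles modify cysteines of KEAP1, NRF2 escapes degradation and, paired with a small MAF protein, binds antioxidant response elements in the promoters and enhancers of its targets. The targets supply glutathione, thioredoxin reduction, NADPH and heme breakdown, and in the brain the pathway is best known from astrocytes and microglia. NRF2 is controlled largely through protein stability, which RNA counts do not measure.

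The promoter sequences of the list show which of these genes carry the short motifs of the pathway next to their start. RefSeq promoter windows (GRCm38.p6, 250 bases before to 50 bases after the start) were at hand for 8 of the 10 genes, in 10 windows. Hmox1 and Gclc had no entry. The core of the antioxidant response element, TGACNNNGC on either strand, was in 12.4% of 32851 windows of all genes, and in a window of Gclm, Txnrd1, Nfe2l2 and Srxn1. The AP-1 site TGANTCA, which can overlap that core, was in 7.81% of all windows and in those of Srxn1 and Osgin1. TGATGNAA, the composite site of ATF4 and C/EBP proteins in genes of amino acid supply, was in 3.97% of all windows and in that of Slc7a11. The windows of Nqo1 and Keap1 held none of these letters. Sequence farther from the start was not searched, so a gene without a match may carry the motif elsewhere. The matched stretches that lie before the start are printed 5′ to 3′ on the strand of the gene, with the matched letters in capitals. Gclm (chr3:122245398-122245456, plus strand) had the core on the opposite strand with its first base at position -134 from the start. Nfe2l2 (chr2:75704870-75704913, minus strand) had it on its own strand at -240, and Txnrd1 (chr10:82859089-82859147, plus strand, the second of its windows) on the opposite strand at -92.
Gclm: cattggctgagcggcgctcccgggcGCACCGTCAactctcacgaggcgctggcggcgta
Nfe2l2: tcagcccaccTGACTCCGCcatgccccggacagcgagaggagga
Txnrd1: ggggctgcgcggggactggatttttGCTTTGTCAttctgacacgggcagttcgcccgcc

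Srxn1 (chr2:152105397-152105510, plus strand) had AP-1 letters at -102 and at -45, and its core match lay after the start. Osgin1 (chr8:119437025-119437081, plus strand) had AP-1 letters at -97. Slc7a11 (chr3:50443628-50443704, minus strand) had the ATF4 composite letters on its own strand at -66 and on the opposite strand at -47. A match is a run of letters and not a measured binding site.
Srxn1: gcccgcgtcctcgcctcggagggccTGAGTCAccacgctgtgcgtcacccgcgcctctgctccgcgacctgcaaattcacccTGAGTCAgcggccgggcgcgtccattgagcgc
Osgin1: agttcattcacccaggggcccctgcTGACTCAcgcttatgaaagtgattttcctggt
Slc7a11: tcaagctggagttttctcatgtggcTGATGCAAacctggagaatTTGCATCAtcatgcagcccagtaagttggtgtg

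The libraries held 37493042 to 44788547 counted reads. Before the values of single genes, the cell type markers of the libraries need to be given. I/R replicate 1 stood apart: the summed level of 10 neuron markers was 3006 CPM (counts scaled to library size and then by TMM factors, which adjust for differences in RNA composition) in it against 5033 and 5387 in the other I/R libraries and 8757 to 9022 in the sham libraries, and 8 of the 10 markers fell. Markers of monocytes and macrophages summed to 149.7 to 291.5 CPM after I/R and 44.81 to 46.24 in sham (8 of 9 genes rose). Cd14 made up 180.4 CPM of that sum in I/R replicate 1, and Vcan 26.75 to 30.2 CPM in the sham libraries. The monocyte marker Ccr2 was at 0.5753 to 2.176 CPM after I/R. The list covers macrophages too, so its sum does not single out blood-derived cells. Neutrophil markers summed to 10.58 to 40.78 CPM after I/R and 4.331 to 5.865 in sham (4 of 6 tested genes rose). The monocyte marker Clec4e and the neutrophil markers Cxcr2 and Ly6g were at 0 in all sham libraries. In I/R replicates 1 to 3 Clec4e had 77, 12 and 19 reads, Cxcr2 87, 10 and 9, and Ly6g 1, 0 and 0. Cxcr2 and Ly6g were not tested, and the neutrophil markers Csf3r and Mpo did not pass. Microglia markers summed to 258.2 to 350.5 CPM after I/R and 255.3 to 288.7 in sham (3 of 8 rose and 3 fell). Endothelium markers summed to 365.7 to 531.1 CPM after I/R and 288.8 to 295.7 in sham (5 of 7 rose and 2 fell). All 6 dentate granule cell markers fell, from 510.1 to 557.1 CPM in sham to 138.1 to 274.3 CPM after I/R in sum. Astrocyte markers summed to 5028 to 5343 CPM after I/R and 5504 to 5804 in sham, where 2 of 9 rose and 5 fell. Among them Gfap, an intermediate filament that marks reactive astrocytes, rose (log2 fold change 2.31 ± 0.17, SE, n = 3, edgeR adjusted p = 0.000269) and the glutamate transporter Slc1a2 fell by 0.96, both named after their values were seen. Oligodendrocyte markers summed to 6023 to 6976 CPM after I/R and 7196 to 8841 in sham (3 of 8 fell), and markers of meninges and fibroblasts to 1236 to 1290 CPM and 1197 to 1460 CPM (4 of 10 rose). Choroid plexus markers ranged from 141.4 to 4923 CPM among I/R libraries and from 173.3 to 6276 among sham libraries, with I/R replicate 3 and sham replicate 1 low. In bulk tissue, fewer cells of a type and less RNA per cell cannot be told apart. The part of these cell mixtures in the results below was not tested.

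After I/R, 6 of the 9 named genes rose, 1 fell and 2 did not pass the test. The genes that rose were Hmox1, Osgin1, Srxn1, Slc7a11, Gclm and Nfe2l2, and Txnrd1 rose too. Keap1 fell, and Nqo1 and Gclc did not pass. The test was edgeR's quasi-likelihood test of the counts with Benjamini-Hochberg adjustment over all 18569 genes tested, and to pass a gene needed both a change of over 1.2 times and an adjusted p below 0.05. Over all tested genes 41.8% passed, 21.8% upwards and 19.9% downwards. The I/R and sham libraries did not overlap for 7 of the 9 genes, against 57.4% of all tested genes. The median log2 fold change of the 9 genes was 1.25, beside 0.03 for all tested genes. Scaling by library size alone moved the median of all genes to 0.28, the genes of the list to 1.52, and the split over all genes from 4054 higher and 3702 lower to 6334 higher and 2027 lower. Under that scaling 8 of the 9 genes passed upwards and 0 downwards, Nqo1 and Gclc with the others.

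**Figure D1:**
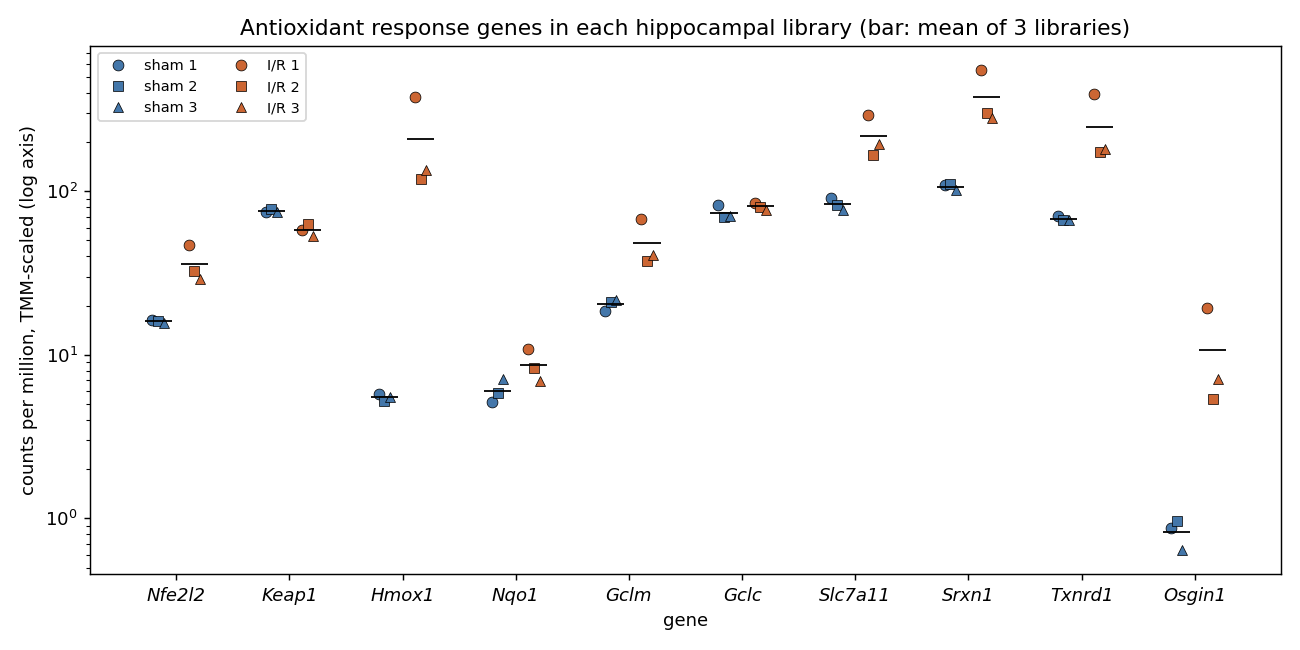
Level of each gene in each of the 6 libraries, in CPM scaled by TMM factors on a log axis, with sham in blue, I/R in orange, a marker shape per replicate number and a bar at the mean of 3 libraries. Hmox1 goes from 5.24 to 5.76 CPM in sham to 119.1 to 375.4 CPM after I/R, while the libraries of Nqo1 and Gclc overlap.

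Among the regulators, the transcript of the transcription factor itself rose. Nfe2l2 (MGP_BALBcJ_G0025829, BALB/cJ assembly chr2:73251602-73284251, minus strand) stood at 16.29, 16.19 and 15.58 CPM in sham replicates 1 to 3 and at 46.75, 32.57 and 29.11 CPM in I/R replicates 1 to 3. Each I/R value exceeded each sham value, and the sham libraries hardly differed among themselves. The log2 fold change was 1.17 ± 0.17 (SE, n = 3 libraries per group, edgeR adjusted p = 0.00188), a 2.26-fold rise.

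Keap1 (MGP_BALBcJ_G0034413, chr9:18007571-18017173, minus strand) encodes the adaptor through which a ubiquitin ligase marks NRF2. It was at 74.66, 78.37 and 74.99 CPM in sham and at 58.33, 62.91 and 53.06 CPM in I/R, the opposite order to the other genes of the list, with no overlap. The log2 fold change was -0.39 ± 0.09 (SE, n = 3, edgeR adjusted p = 0.00984). This fall depended on the scaling: with library size alone the log2 fold change was -0.13 and the edgeR adjusted p was 0.282, while the median of all genes stood at 0.28. An antisense gene, Gm16754, overlaps Keap1 in the table, with 158 counts in all 6 libraries together.

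Hmox1 (MGP_BALBcJ_G0033771, chr8:72679321-72686163, plus strand), the inducible heme oxygenase that opens heme to biliverdin, iron and carbon monoxide, had the largest change of the list. Its raw counts were 225, 213 and 189 in the sham libraries and 17085, 4763 and 5377 in the I/R libraries. Scaled in this way these were 5.763, 5.241 and 5.493 CPM against 375.4, 119.1 and 134.5 CPM. Every I/R library was far above every sham library, and I/R replicate 1 was 2.96 times the mean of the other I/R libraries. The rise was 38.1-fold, a log2 fold change of 5.25 ± 0.48 (SE, n = 3, edgeR adjusted p = 0.000408), which ranked 114 among the 18569 tested genes. Leaving out I/R replicate 1 gave a log2 fold change of 4.52 (edgeR adjusted p = 1.23e-12).

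Nqo1 (MGP_BALBcJ_G0034073, chr8:105629635-105644642, minus strand), the quinone reductase often read as the standard NRF2 target, did not pass the test. It was at 5.148, 5.881 and 7.092 CPM in sham and at 10.81, 8.255 and 6.902 CPM in I/R. The lowest I/R library, replicate 3, lay below the highest sham library, also replicate 3. The log2 fold change was 0.52 ± 0.21 (SE, n = 3, edgeR adjusted p = 0.0817, unadjusted p = 0.0392), with a point estimate of 1.44-fold. It passed in 6 of 19 alternatives: with the unadjusted p, with library size alone (log2 fold change 0.79, edgeR adjusted p = 0.0254), without I/R replicate 3 (edgeR adjusted p = 0.0489), with a choroid plexus covariate (edgeR adjusted p = 0.0453), and in both fits of the FPKM values.

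The pair of glutamate-cysteine ligase genes, whose products join into the enzyme that limits glutathione synthesis, separated. Gclm, the modifier subunit (MGP_BALBcJ_G0027807, chr3:120140384-120161224, plus strand), was at 18.54, 21.09 and 21.62 CPM in sham and 67.27, 37.4 and 40.51 CPM in I/R, with no overlap. It rose by a log2 fold change of 1.25 ± 0.22 (SE, n = 3, edgeR adjusted p = 0.00351), or 2.37-fold. Gclc, the catalytic subunit (MGP_BALBcJ_G0035027, chr9:75156002-75196162, plus strand), was at 81.86, 69.53 and 70.77 CPM in sham and 85.18, 80.57 and 76.32 CPM in I/R. These ranges overlapped, because sham replicate 1 lay above I/R replicates 2 and 3. Its log2 fold change was 0.12 ± 0.09 (SE, n = 3, edgeR adjusted p = 0.323), and it passed with library size alone (log2 fold change 0.38, edgeR adjusted p = 0.0207) and in both fits of the FPKM values.

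Slc7a11 (MGP_BALBcJ_G0027164, chr3:46819247-47380990, minus strand) encodes xCT, the transporter that brings in cystine for glutathione in exchange for glutamate. Its levels were 91.41, 82.03 and 76.76 CPM in sham and 293.4, 166.1 and 195.1 CPM in I/R. The lowest I/R library was clearly above the highest sham library. The rise was 2.62-fold (log2 fold change 1.39 ± 0.20, SE, n = 3, edgeR adjusted p = 0.00177). Its region in the table contains 4 unnamed genes, none with more than 69 counts over all 6 libraries.

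In the thioredoxin branch, the enzymes that reactivate peroxiredoxins and thioredoxin both rose. Srxn1 (MGP_BALBcJ_G0026626, chr2:150703456-150709316, plus strand), the sulfiredoxin that restores over-oxidised peroxiredoxins, was at 108.5, 110.1 and 101.5 CPM in sham and 551.2, 298.7 and 280.9 CPM in I/R. Txnrd1 (MGP_BALBcJ_G0017524, chr10:81065302-81104889, plus strand), the cytosolic thioredoxin reductase, was at 71, 66.63 and 66.35 CPM in sham and 390.5, 173.5 and 181 CPM in I/R. Both genes were nearly level across the sham libraries, were highest in I/R replicate 1, and had no overlap between groups. Srxn1 rose 3.53-fold (log2 fold change 1.82 ± 0.25, SE, n = 3, edgeR adjusted p = 0.00146). Txnrd1 rose 3.65-fold (log2 fold change 1.87 ± 0.30, SE, n = 3, edgeR adjusted p = 0.00252).

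Osgin1 (MGP_BALBcJ_G0034155, chr8:117907474-117919608, plus strand), a growth inhibitor induced by oxidative stress, was the scarcest gene of the list in sham. The sham libraries held 34, 39 and 22 reads and the I/R libraries 883, 216 and 283 reads. Scaled, these were 0.8708, 0.9596 and 0.6394 CPM against 19.4, 5.403 and 7.077 CPM. No library of one group reached the other, and I/R replicate 1 was 3.11 times the mean of the other I/R libraries. The rise was 12.8-fold (log2 fold change 3.68 ± 0.52, SE, n = 3, edgeR adjusted p = 0.00163), second on the list after Hmox1. With I/R replicate 1 left out it was a log2 fold change of 2.91 (edgeR adjusted p = 6.25e-07).

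I/R replicate 1 was the highest I/R library for all 6 named genes that rose, and for Txnrd1. This was also usual elsewhere: of the 4054 genes that rose, 73.1% were highest in that library, with a median ratio of 1.25 to the mean of the other I/R libraries. The genes of the list that rose had ratios above that median, with 1.52 for Nfe2l2, 1.63 for Slc7a11, 1.73 for Gclm, 1.90 for Srxn1, 2.20 for Txnrd1, 2.96 for Hmox1 and 3.11 for Osgin1. Among the genes that did not rise, the ratio was 1.43 for Nqo1, 1.09 for Gclc and 1.01 for Keap1. Neuron and dentate granule cell markers were lowest in I/R replicate 1. It was the highest I/R library in neutrophil markers, 40.78 CPM against 10.63 and 10.58. The same held for monocytes and macrophages (291.5 against 158.9 and 149.7), microglia (350.5 against 258.2 and 294.9) and endothelium (531.1 against 427.5 and 365.7). It also held for oligodendrocytes and for meninges and fibroblasts, but not for astrocytes or choroid plexus. Without I/R replicate 1 the test still gave rises for 6 of the 9 genes and a fall for 1. The log2 fold changes were then 0.93 for Gclm, 0.94 for Nfe2l2, 1.11 for Slc7a11, 1.44 for Srxn1 and 1.38 for Txnrd1. With the choroid plexus marker level as a covariate, 7 of the 9 genes rose, Nqo1 included, and 1 fell.

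**Figure D2:**
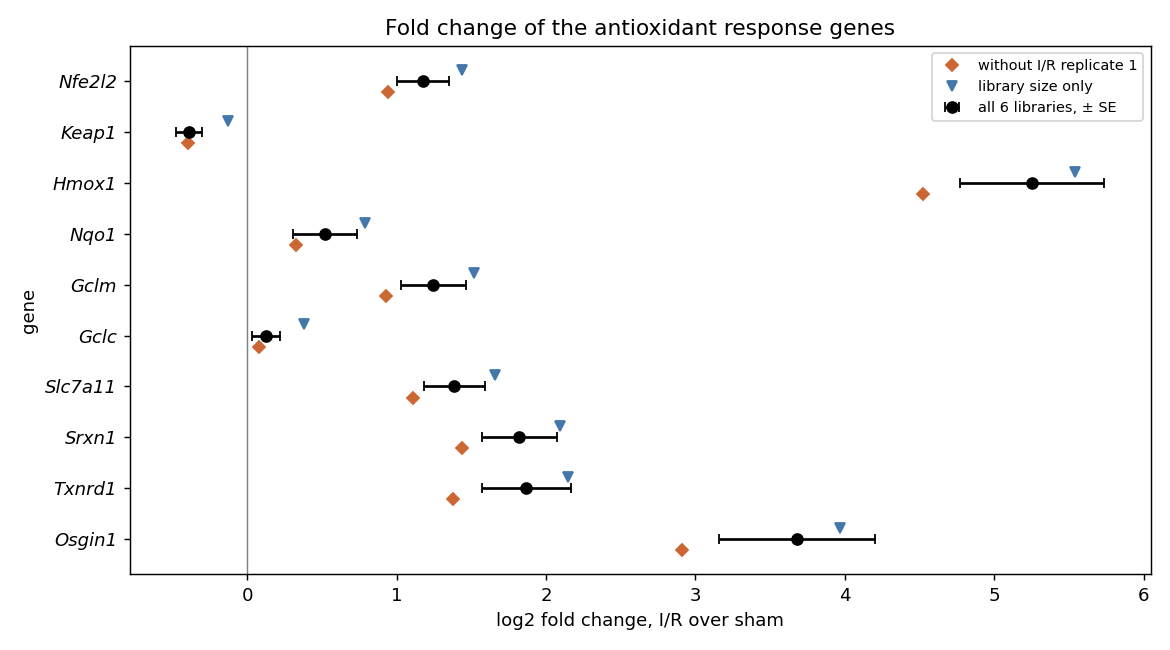
Log2 fold change of I/R over sham for each gene, with all 6 libraries (black, ± SE), without I/R replicate 1 (orange) and scaled by library size alone (blue). Leaving out I/R replicate 1 lowers Hmox1 from 5.25 to 4.52 and Osgin1 from 3.68 to 2.91, and library size alone brings Keap1 from -0.39 to -0.13.

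Levels can be set side by side between genes only per length, for which the deposited FPKM values were used. In sham, Srxn1 led with 80.6 ± 3.2 FPKM (SD, n = 3), above Gclm (29.9 ± 2.3 FPKM), Keap1 (28.0 ± 0.5 FPKM), Slc7a11 (21.3 ± 2.0 FPKM) and Gclc (19.8 ± 1.9 FPKM). Below these came Txnrd1 at 14.2 ± 0.6 FPKM, Nfe2l2 at 7.48 ± 0.18 FPKM, Hmox1 at 5.23 ± 0.28 FPKM, Nqo1 at 3.56 ± 0.58 FPKM and Osgin1 at 0.662 ± 0.130 FPKM. The libraries of Gclm overlapped those of Keap1, and the libraries of Slc7a11 those of Gclc, so these neighbours did not differ beyond their spread.

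After I/R, Hmox1 moved from 8th to 2nd place. Srxn1 was at 344 ± 156 FPKM and Hmox1 at 243 ± 178 FPKM, and these overlapped. Gclm (85.5 ± 33.4 FPKM), Slc7a11 (67.3 ± 23.9 FPKM) and Txnrd1 (62.6 ± 34.3 FPKM) formed the next group and overlapped with each other. Gclc (25.8 ± 2.6 FPKM), Keap1 (25.6 ± 2.5 FPKM) and Nfe2l2 (20.3 ± 6.3 FPKM) followed, then Osgin1 (10.4 ± 8.0 FPKM) and Nqo1 (6.13 ± 1.70 FPKM), each of these overlapping the next. Among 28949 genes with any count, the share with a lower mean FPKM than Hmox1 went from 65.0% in sham to 98.8% after I/R, and for Osgin1 from 47.4% to 69.7%. The order rests on the length used: the deposited FPKM divides by a length that differs from the listed gene length for 7 of the 10 genes. With the listed length Slc7a11 was 6th and not 4th in sham, Hmox1 9th and not 8th, and after I/R Txnrd1 was 3rd, while Srxn1 stayed 1st in both groups and Hmox1 2nd after I/R.

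**Figure D3:**
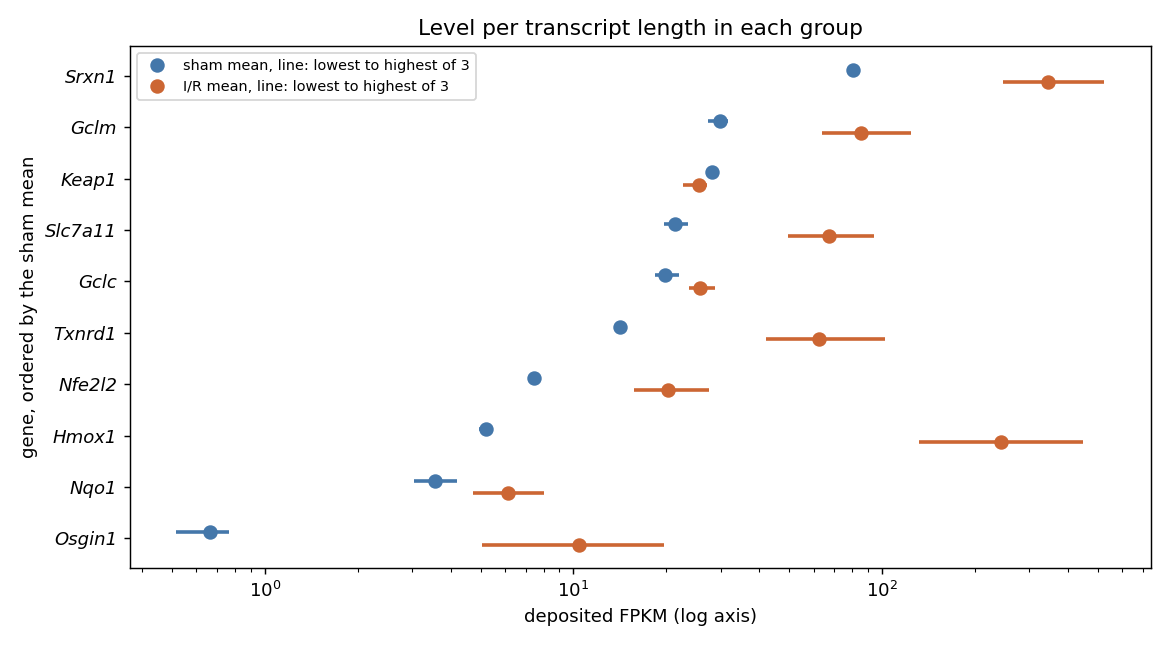
Deposited FPKM of each gene on a log axis, with the mean (point) and the lowest to highest of 3 libraries (line) in sham (blue) and I/R (orange), ordered by the sham mean. Hmox1 passes from 5.23 FPKM, below 7 genes of the list, to 243 FPKM, below Srxn1 only.

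A ratio of counts within a library does not depend on how libraries are scaled, so 8 pairs of partner genes were compared by an exact two-sided permutation test over libraries, whose smallest possible p is 0.1. For 6 of the 8 pairs the groups did not overlap (each exact p = 0.1, Benjamini-Hochberg adjusted over the 8 pairs 0.133). The share of other gene pairs that separate the groups was not computed, and 57.4% of all tested genes did so singly. The count thus only describes these pairs. Hmox1 against Hmox2, the constitutive heme oxygenase, had log2 ratios of -3.63, -3.90 and -3.70 in sham and 2.88, 1.01 and 1.07 in I/R. Hmox1 thus had fewer reads than Hmox2 in sham and more in every I/R library. These counts are not divided by length, so the sign of a ratio does not show which transcript was more abundant. The mean log2 ratio of Gclm to Gclc went from -1.86 ± 0.25 to -0.79 ± 0.40 (SD, n = 3), and that of Txnrd1 to mitochondrial Txnrd2 from 2.25 ± 0.12 to 4.07 ± 0.49. The ratio of Nfe2l2 to Keap1 was -2.20, -2.27 and -2.27 in sham and -0.32, -0.95 and -0.87 in I/R, a difference of 1.53 on the log2 scale.

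The other pairs moved less. Srxn1 gained on its substrate gene Prdx1, a peroxiredoxin, by 0.66 on the log2 scale, from 0.17 ± 0.05 to 0.82 ± 0.36 (SD, n = 3). Nfe2l2 lost ground to Bach1, which encodes a repressor that competes for the same elements: the log2 ratio was -0.31, -0.10 and -0.08 in sham and -0.45, -0.56 and -0.48 in I/R, a difference of -0.33. Slc7a11 and its heavy chain partner Slc3a2 kept a similar ratio, with -0.58 ± 0.15 in sham and -0.51 ± 0.17 in I/R (SD, n = 3, exact permutation p = 0.9). The ratio of Nqo1 to Nqo2 was -0.26 ± 0.20 in sham and 0.14 ± 0.22 in I/R, with overlapping libraries (SD, n = 3, exact permutation p = 0.2, adjusted 0.229).

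**Figure D4:**
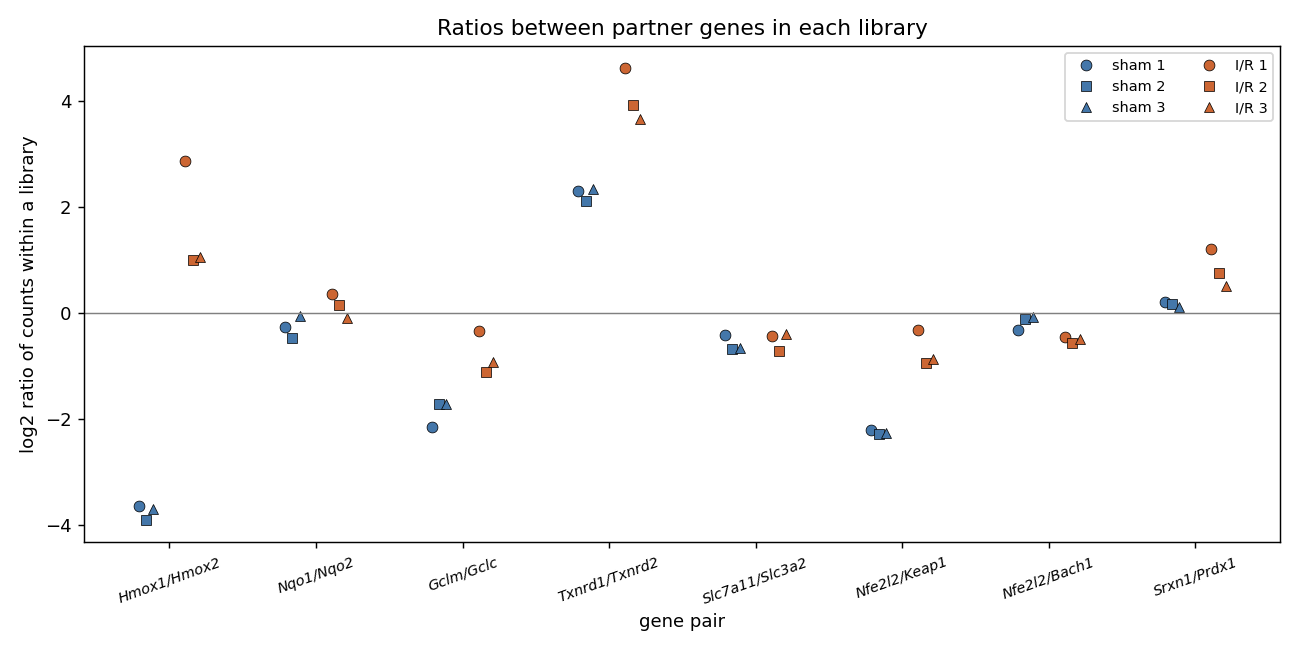
Log2 ratio of the counts of 2 partner genes within each library, with sham in blue, I/R in orange and a marker shape per replicate number. The groups do not overlap for 6 of the 8 pairs, and for Hmox1/Hmox2 the ratio crosses 0, from -3.90 to -3.63 in sham to 1.01 to 2.88 in I/R.

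Beyond the 10 genes, 8 lists of the wider pathway held 107 genes, of which 101 were tested. In these lists 28 genes rose and 22 fell, 49.5% of those tested, beside 41.8% of all tested genes. The share that rose was 27.7%, beside 21.8% of all tested genes. Each list below is given with the share of its tested genes that passed in either direction, to be read beside the 41.8%. With library size alone 28 of the 28 rises and 7 of the 22 falls still passed. That scaling moved values upwards across the whole table, where rises went from 4054 to 6334 and falls from 3702 to 2027. Rises were thus bound to pass more readily under it, and these counts cannot show whether rises or falls were the more stable. Of the 28 rises 19, and of the 22 falls 10, passed whichever library was left out. Of the listed genes, Akr1c13, Ugt1a6a and Ftl1 had no row by name and were not analysed here. Selenow and the neuron marker Map2 had no name either, and were found from the KEGG text of their rows, like Txnrd1. Of 6 neighbouring genes checked for each, 5 matched for Selenow and 6 for Map2.

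Of 14 regulators and partners of NRF2, 6 rose and 2 fell (57.1% passed). Maff, a small MAF protein with which NRF2 or BACH1 pairs, was at 2.165 to 3.304 CPM in sham and 29.08 to 69.34 CPM in I/R, a log2 fold change of 4.10 ± 0.36 (SE, n = 3, edgeR adjusted p = 0.000353). Mafk, of the same family, rose by 1.52 ± 0.20, Trim16 by 2.10 ± 0.35 and Bach1 by 1.50 ± 0.18 on the log2 scale, from 16.42 to 20.23 CPM in sham to 40.64 to 64.02 CPM in I/R for Bach1. Btrc, a ubiquitin ligase adaptor that also targets NRF2, fell by 0.73, and Bach2 fell by 0.48. The Bach2 fall did not pass with library size alone, without sham replicate 2 or without sham replicate 3.

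Of 12 genes of glutathione synthesis and recycling, 4 rose and 3 fell (58.3% passed). Chac1, which degrades glutathione, rose most (log2 fold change 1.89 ± 0.23), followed by Slc3a2, the partner of xCT, with 1.31 ± 0.17 and from 121.5 to 130.5 CPM in sham to 255.6 to 397.3 CPM in I/R. Gsr, glutathione reductase, rose by 0.87 ± 0.12 on the log2 scale. Ggt1, Ggt7 and the glutamate and cysteine transporter Slc1a1 fell by 1.08, 0.64 and 0.49 on the log2 scale, and Slc1a1 did not pass with library size alone. Among 21 glutathione peroxidases and transferases 4 rose and 5 fell. The share that passed, 42.9%, was near the 41.8% of all tested genes. Gpx3 (log2 fold change 1.84 ± 0.32), Mgst1 (1.59 ± 0.18) and Gsta3 (1.16 ± 0.24) rose most. Mgst3, Gstt1 and Gstm7 had log2 fold changes of -0.83, -0.67 and -0.54. The falls of Gstt1 and Gstm7 did not pass with library size alone, and that of Gstt1 also failed without I/R replicate 2 or 3 or sham replicate 2 or 3. Gstm and Gstp genes have near-identical copies, so their counts are uncertain.

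The thioredoxin and peroxiredoxin list had the most rises of the 8, 8 of 16 genes, with 3 falls (68.8% passed). Sesn2, a stress-induced sestrin, went from 20.2 to 23.77 CPM in sham to 75.05 to 90.12 CPM in I/R (log2 fold change 1.86 ± 0.11, SE, n = 3, edgeR adjusted p = 0.000169). Prdx1 rose by 1.10 ± 0.12 and Txn1, thioredoxin itself, by 0.95 ± 0.11 on the log2 scale. Txnrd2 had a log2 fold change of -0.04 ± 0.15 and did not pass. Selenow, a selenoprotein, fell by 0.93, from 1326 to 1410 CPM in sham to 518 to 812.8 CPM in I/R. Prdx5 and Prdx2 had log2 fold changes of -0.42 and -0.30, which did not pass with library size alone or without sham replicate 2 or 3, and for Prdx2 also without I/R replicate 2.

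Of 11 genes of NADPH supply, 3 rose and 2 fell. The share that passed, 45.5%, was near the 41.8% of all tested genes. Pgd and G6pdx, enzymes of the oxidative pentose phosphate pathway, rose by 1.25 ± 0.25 and 0.46 ± 0.09 on the log2 scale, and Taldo1 by 0.52 ± 0.13, which did not pass without sham replicate 1 or 3. Nnt fell by 0.71, and Me1 had a log2 fold change of -0.29 that did not pass with library size alone or without any 1 of the sham libraries. Of 14 tested quinone, carbonyl and xenobiotic enzymes only 1 rose and 2 fell (21.4% passed). The riser was Akr1b8, an aldo-keto reductase, at 0.3445 to 0.6403 CPM in sham and 7.477 to 12.83 CPM in I/R (log2 fold change 4.26 ± 0.32, SE, n = 3, edgeR adjusted p = 0.000269). Nqo2 did not pass (0.10 ± 0.16), and the log2 fold changes of Ephx2 (-0.37) and Aldh1a1 (-0.32) did not pass with library size alone. Aldh1a1 also failed without sham replicate 1 or 3, and Ephx2 without any 1 library other than I/R replicate 1.

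Of 8 tested genes of heme breakdown and ferritin, 2 rose and 4 fell (75% passed). The biliverdin reductases Blvrb and Blvra, which act after heme oxygenase, rose by 1.70 ± 0.20 and 0.58 ± 0.11 on the log2 scale. The iron exporter Slc40a1, ferroportin, fell by 0.97, from 10.16 to 11.04 CPM in sham to 3.827 to 6.723 CPM in I/R. Fech (-0.38) and Hmox2 (-0.35) fell less, and did not pass with library size alone or without sham replicate 3. Hmox2 also failed without I/R replicate 2 or sham replicate 1 or 2. Of 5 superoxide dismutase and catalase genes 4 did not pass (20% passed). Sod2, the mitochondrial enzyme, had a log2 fold change of -0.29 (edgeR adjusted p = 0.0488) that did not pass with library size alone or without any 1 library other than I/R replicate 3.

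**Figure D5:**
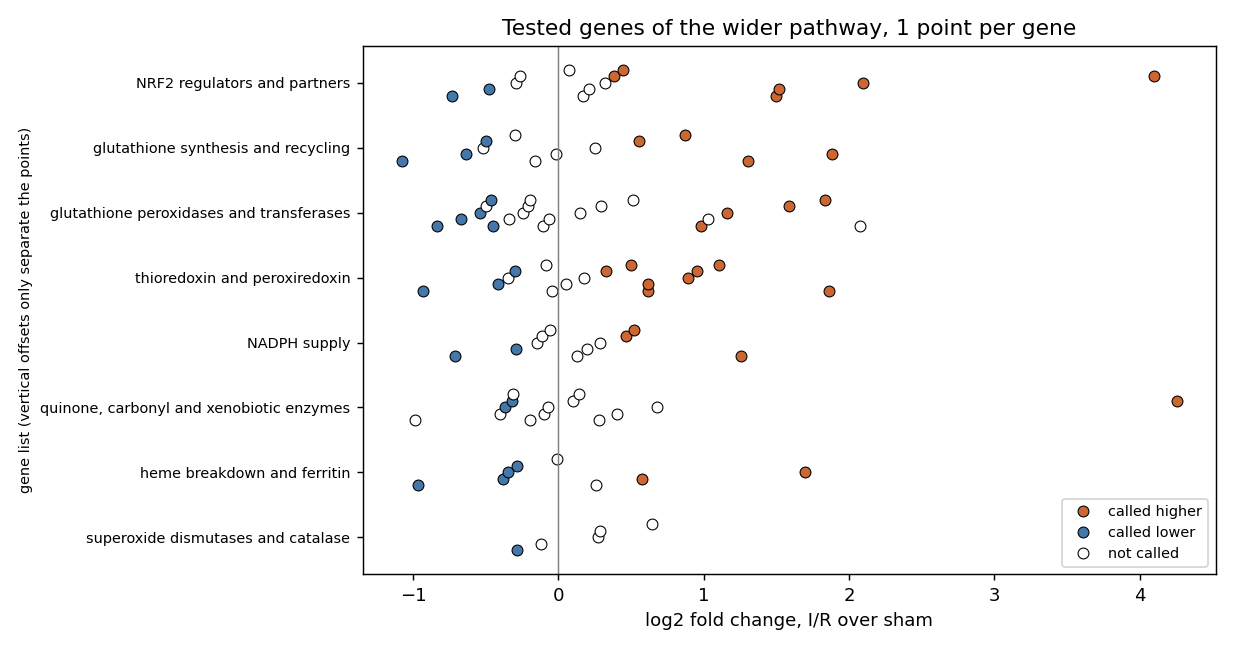
Log2 fold change of I/R over sham for the 101 tested genes of 8 lists of the wider pathway, 1 point per gene, orange for genes that rose, blue for genes that fell and white for genes that did not pass. Maff (4.10) and Akr1b8 (4.26) lie far to the right, and most falls are smaller than 1 on the log2 scale.

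The genes whose profiles lay nearest to those of Hmox1 and Nfe2l2 were found by the Euclidean distance between log2 values of CPM with 0.5 added, over the 6 libraries, each gene centred on its sham mean. The added 0.5 draws genes that are near 0 in sham towards smaller differences, so a short distance does not mean an equal fitted fold change. For Hmox1 these were Flnc, encoding filamin C (distance 0.419), the cytokine gene Clcf1 (0.563) and Il1rn, the interleukin-1 receptor antagonist (0.574). Il1rn had 0 reads in every sham library. Its fitted log2 fold change, 12.1 against 5.25 for Hmox1, therefore has no measured sham level under it. For Nfe2l2 the nearest genes were Vasp, an actin regulator (0.0689), the phospholipid scramblase gene Ano6 (0.0889) and the myelin gene Pmp22 (0.111).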

How the data were processed

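Bulk RNA-seq libraries of mouse hippocampus, 3 I/R and 3 sham, were analysed from the table the authors deposited. According to the study's methods the authors aligned reads with TopHat2 to an Ensembl genome and counted them per gene with HTSeq, while the submitters' processing notes name Bowtie 0.12.2 and mm8. The deposited columns hold a raw read count and an FPKM value per library. The authors' mean normalized signal per group, fold changes, p-values and adjusted p-values were also deposited, and these were not used. Most gene identifiers (40303 of 41386) are of the BALB/cJ annotation although the labels give C57BL/6, and coordinates of genes are those of the table. Whether strand was used in counting is not given in the sources used here. 4 split lines were rejoined.

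The test was that of edgeR 4.0.16 under R 4.3.3 on the counts (filterByExpr, TMM, robust quasi-likelihood test, Benjamini-Hochberg). CPM values were scaled by TMM factors. Alternatives used limma 3.58.1 on voom weights or on log2(FPKM + 1) and log2(FPKM + 0.1), DESeq2 1.42.0, other scalings and filters, a replicate block, a choroid plexus covariate and leaving out each library. The script was tested on simulated data. The members and the lists were chosen with earlier results of these data known. Named genes were the 10 members, the ratio partners, up to 3 of the largest passing rises and falls of each list, genes with no row, and the 3 nearest profiles of Hmox1 and Nfe2l2. Ratios used counts with 0.5 added.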

Additional observations from a re-analysis of the deposited data

How the results depend on the processing

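Under the 19 alternatives the rises of Hmox1, Osgin1, Srxn1, Txnrd1, Slc7a11, Gclm and Nfe2l2 all passed, with log2 fold changes over 17 refits of 4.52 to 5.54 for Hmox1, 2.57 to 3.97 for Osgin1 and 0.94 to 1.44 for Nfe2l2. No value changed sign. Keap1 ranged from -0.47 to -0.13, and the count of named members that fell went from 1 to 0 with library size only, log2(FPKM + 1), log2(FPKM + 0.1) or a fold change over 2. In the pathway lists, the count of rises (28) became 43 with log2(FPKM + 0.1) and 14 with a fold change over 2. The count of falls (22) became 7 with library size only, log2(FPKM + 1) or log2(FPKM + 0.1), 13 with the replicate block and 1 with a fold change over 2. With 1 library left out there were 10 to 27 falls: 10 when sham replicate 3 was out, 12 for sham replicate 2 and 27 for I/R replicate 1. All genes passing (7756) became 2760 with a fold change over 2. A higher fold threshold can only lower a count. What moved the other counts, those with 1 library left out included, was not tested. Same-numbered deviations correlated at -0.139, 0.0426 and -0.236 over 18569 genes. The highest correlation, 0.33, was between I/R replicate 3 and sham replicate 1, both low in choroid plexus markers. Such correlations cannot show whether libraries were handled as pairs. With the replicate block 6332 genes passed and the members kept 6 rises and 1 fall. The within-library ratios kept their sign without any 1 library and with 1 added in place of 0.5. With 3 pooled libraries per group, the exact test cannot give a p below 0.1. Under TMM scaling the change of Gclc (0.12 ± 0.09) lay within the spread between pools.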
